A study of Mus musculus with 6 samples.

Results

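Transcripts of the enzymes that let heart muscle burn ketone bodies were compared between wild-type and TFEB-/- cardiomyocytes. The genes are Bdh1, Bdh2, Oxct1 and Acat1, taken from the table by symbol alone but put together when the change of Bdh1 was already known. They are 4 of the 46450 symbols in the deposited table. The libraries came from heart cardiomyocytes of C57BL/6 mice aged 3 months, in 2 groups of 3, wild type (WT) and TFEB-/-. The labels name no other allele, agent or treatment in either group, and do not say whether TFEB was deleted in the whole animal or in the heart only, nor whether each library came from a different mouse. If they did not, the p-values measure the spread between these samples only, which may be technical. TFEB drives genes for lysosomes and autophagy in many cell types and is active when nutrients are scarce.

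Ketone bodies are made in the liver from fatty acids, mainly during fasting, and are carried in the blood to tissues that oxidise them. The heart is one of their main users. There, BDH1 in the mitochondrion oxidises 3-hydroxybutyrate to acetoacetate, OXCT1 transfers coenzyme A from succinyl-CoA to acetoacetate, and ACAT1 splits the resulting acetoacetyl-CoA into acetyl-CoA for the TCA cycle. BDH2 is a cytosolic dehydrogenase that has also been linked to iron handling.

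The values are taken to be CPM (counts scaled to a common library total), rounded by the authors to whole numbers. The reads behind a value, and with them its counting error, are thus unknown. Each library summed to between 999505 and 999655 CPM, and 12070 to 12664 genes reached 1 CPM. Tfeb itself was at 17, 30 and 23 CPM in WT and at 6, 5 and 7 CPM in TFEB-/-. Its log2 fold change was −1.85 (SE 0.24, limma adjusted p = 0.0267), a call that passed in 11 of 17 alternative settings. In the leave-one-out fits it held in 1 of 6. Transcripts of the mitochondrial genome took up 36.4 ± 7.28% of the WT libraries and 25.9 ± 4.06% of the TFEB-/- libraries (SD, n = 3 each, exact two-sided permutation p = 0.1, the smallest that 3 against 3 allow). Over all 12437 tested genes the median log2 fold change was 0.24 on the deposited scale, and 0.02 when CPM were recomputed without those transcripts, so the ketone genes are given on both scales. Cardiomyocyte markers were all abundant, with their 8 genes summing to 50287 to 67943 CPM in WT and 59778 to 80427 CPM in TFEB-/-. Summed endothelial markers were at 201 to 298 and 197 to 220 CPM, fibroblast markers at 97 to 119 and 111 to 149 CPM, smooth muscle markers at 88 to 150 and 186 to 251 CPM, and macrophage markers at 8 to 13 and 17 to 20 CPM. Within the smooth muscle sum the groups were separate for Acta2 alone (66, 118 and 70 against 161, 233 and 185 CPM, limma adjusted p = 0.0876), while Myh11, Tagln and Cnn1 overlapped. Without mitochondrial transcripts the endothelial sums were separate too, at 304.3 to 430.4 CPM in WT and 276.6 to 294.6 CPM in TFEB-/-. The smooth muscle sums stayed separate and higher in TFEB-/-, while the cardiomyocyte, fibroblast and macrophage sums overlapped. On that scale Kdr, Egfl7 and Pln were lower in every TFEB-/- library, as were 16.5% of all genes, and Acta2 and Pdgfra were higher. The part of these markers in the results on ketone genes was not tested. On the deposited scale 1 gene of these marker lists passed the threshold, called higher like 3.92% of all genes. It was the fibroblast marker Pdgfra, at 2 CPM in each WT and 3 CPM in each TFEB-/- library, 1 rounding step apart. Its call was lost without mitochondrial transcripts (limma adjusted p = 0.319). The 4 hepatocyte markers, Alb among them, were listed at 0 in all 6 libraries. In bulk samples, fewer cells of a type and less RNA per cell cannot be told apart.

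Bdh1, the enzyme of the first step, fell in TFEB-/- cardiomyocytes to 44.4% of its WT mean, while Oxct1 and Acat1, the enzymes of the following steps, did not pass the test. Bdh2 was listed at 0 in all 6 libraries, so it was not tested and no fold change is given. Of the 3 genes tested, limma called 1 lower and 0 higher (threshold 0.05 on the adjusted p). Among all 12437 genes tested, 0.523% were called lower and 3.92% higher. Since the change of Bdh1 was known when the genes were chosen, its call is no independent evidence about the pathway.

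Bdh1 (ENSMUSG00000046598) lies on GRCm38 chromosome 16, 31422280 to 31458901, on the plus strand. GENCODE M21 lists 7 transcripts for it, 4 of them protein coding, and the table gives 1 value for them all. RefSeq places 2 start sites for Bdh1, 6456 bases apart. The stretches before them are shown because the gene was the member that changed in cells lacking a DNA-binding factor, and each holds no annotated exon base of Bdh1. The downstream stretch lies inside the gene, between the annotated ends given above. They are in lower case throughout, since none of the motifs searched was found in them.

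Bdh1 upstream start, chr16:31422047-31422279, plus strand, 233 bases: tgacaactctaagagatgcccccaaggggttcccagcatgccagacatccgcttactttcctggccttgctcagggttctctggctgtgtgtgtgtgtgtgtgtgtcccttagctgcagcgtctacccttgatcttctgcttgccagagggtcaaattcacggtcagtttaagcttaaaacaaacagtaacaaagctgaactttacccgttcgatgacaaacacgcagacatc
Bdh1 downstream start, chr16:31428503-31428747, plus strand, 245 bases: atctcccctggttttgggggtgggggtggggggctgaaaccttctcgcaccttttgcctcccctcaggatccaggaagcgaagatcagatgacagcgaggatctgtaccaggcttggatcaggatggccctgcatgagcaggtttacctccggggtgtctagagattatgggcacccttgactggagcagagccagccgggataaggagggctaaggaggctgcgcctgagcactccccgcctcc

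The 2 printed stretches differed in base composition, at 49.8% and 60.4% G or C. Each full RefSeq window (GRCm38), 250 bases before to 50 after a start site, was searched on both strands for the E-box core CACGTG, the longer TCACGTGA bound by TFEB and its relatives, the estrogen-related receptor sequence AAGGTCA, and the PPAR-type direct repeat DR1 (AGGTCA, any base, AGGTCA). TCACGTGA contains CACGTG, so the first pair of motifs overlaps. None of the 4 motifs was present in either Bdh1 window, the Oxct1 window or the Bdh2 window, which were the members matched. Acat1 had no entry. Of all 32851 windows, 7.15% held CACGTG, 0.974% TCACGTGA, 4.72% AAGGTCA and 0.0396% the direct repeat. The search says only that these letters are not in these windows.

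Bdh1 was at 141, 117 and 107 CPM in the 3 WT libraries and at 54, 51 and 57 CPM in the 3 TFEB-/- libraries. Every TFEB-/- value was below every WT value, and the WT libraries were spread more widely than the TFEB-/- libraries. The means were 121.7 ± 17.5 and 54.0 ± 3 CPM (SD, n = 3 each), a log2 fold change of −1.16 (SE 0.12, 95% interval −1.47 to −0.85, limma adjusted p = 0.0132). A gap of this kind, with all TFEB-/- values lower, was found for 2.28% of the tested genes. An exact two-sided permutation test of the CPM gave p = 0.1. The call was lost without WT 2 (adjusted p = 0.059), TFEB-/- 1 (adjusted p = 0.0764) or TFEB-/- 3 (adjusted p = 0.0719). Over 17 alternatives Bdh1 passed in 13, with log2 fold changes from −1.39 to −1.05 and adjusted p from 0.00196 to 0.0911.

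Without the mitochondrial transcripts in the total, Bdh1 was at 203.7, 177.1 and 193.4 CPM in WT and at 69.5, 73.2 and 76.3 CPM in TFEB-/-. The WT libraries lay closer together on this scale, with a coefficient of variation of 7.0% against 14.4% on the deposited scale. WT 1, which was highest in Bdh1 on the deposited scale, had the lowest mitochondrial share of the 3 WT libraries (30.7%), and WT 3, which was lowest, had the highest (44.6%). The TFEB-/- mean was 38.1% of the WT mean, and the log2 fold change was −1.38 (SE 0.09, limma adjusted p = 0.00275). On this scale 1.51% of genes were called lower and 3.7% higher.

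Bdh1 stood lower among the expressed genes of each TFEB-/- library. Ordered by CPM within a library, Bdh1 stood at positions 694 to 797 in WT and 1902 to 2144 in TFEB-/-. The groups did not overlap in this order. Acat1 was separate in it too, at positions 177 to 203 in WT and 218 to 255 in TFEB-/-. Oxct1 overlapped, at positions 86 to 106 and 94 to 119. The share of all genes separate in this order was not counted.

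Oxct1 (ENSMUSG00000022186; chromosome 15, 4026383 to 4155344, plus strand) encodes the transferase that commits acetoacetate to oxidation and that liver lacks. It was at 980, 856 and 801 CPM in WT and at 914, 902 and 841 CPM in TFEB-/-. All 3 TFEB-/- values lay inside the WT range. The means were 879 ± 91.7 and 885.7 ± 39.1 CPM, with a log2 fold change of 0.02 and a 95% interval of −0.23 to 0.26 (SE 0.09, limma adjusted p = 0.972).

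The sign of the Oxct1 difference depended on the scale. Without mitochondrial transcripts it was at 1416, 1296 and 1448 CPM in WT and at 1176, 1294 and 1126 CPM in TFEB-/-. Every TFEB-/- value was then below every WT value, by less than 2 CPM between the nearest pair, WT 2 and TFEB-/- 2. The log2 fold change was −0.21 (95% interval −0.44 to 0.02, limma adjusted p = 0.258), and it did not pass the threshold in any of 17 alternatives.

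Acat1 (ENSMUSG00000032047; chromosome 9, 53580522 to 53610382, minus strand) encodes the mitochondrial acetoacetyl-CoA thiolase, which also serves in the breakdown of isoleucine. It was at 498, 492 and 435 CPM in WT and at 440, 441 and 468 CPM in TFEB-/-. The groups overlapped, with WT 3 the lowest of all 6 libraries. The means were 475 ± 34.8 and 449.7 ± 15.9 CPM, with a log2 fold change of −0.08 (SE 0.07, 95% interval −0.27 to 0.11, limma adjusted p = 0.528).

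Acat1 was lower in every TFEB-/- library once mitochondrial transcripts were left out of the total. It was then at 719.3, 744.7 and 786.1 CPM in WT and at 566, 632.8 and 626.7 CPM in TFEB-/-. The log2 fold change of −0.30 (SE 0.09, 95% interval −0.51 to −0.10) still missed the threshold (limma adjusted p = 0.104). On this scale the groups of Bdh1, Oxct1 and Acat1 were all separate, with TFEB-/- lower, as they were for 16.5% of all genes tested.

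**Figure D1:**
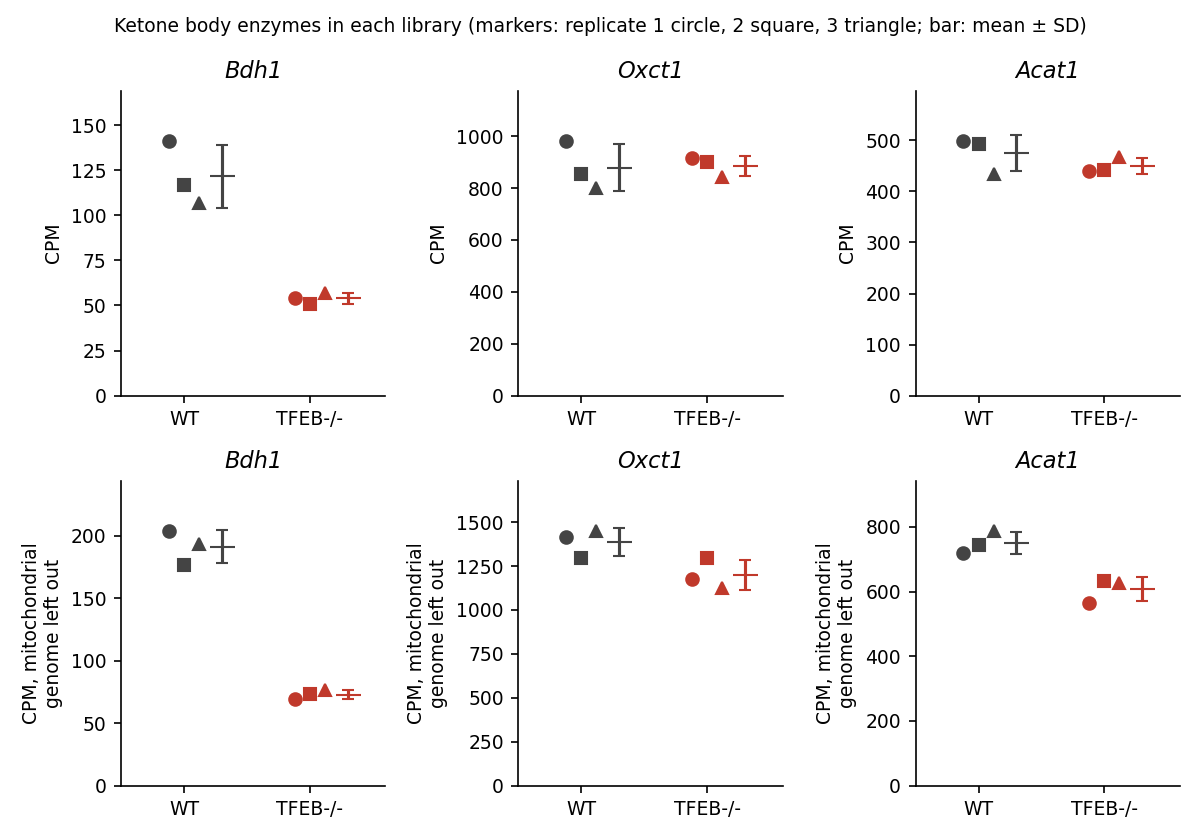
CPM of Bdh1, Oxct1 and Acat1 in each WT (grey) and TFEB-/- (red) library, on the deposited scale (upper row) and with transcripts of the mitochondrial genome left out of the total (lower row). Circles, squares and triangles are replicates 1, 2 and 3, and bars are the mean ± SD. Bdh1 is separate on both scales, at 51 to 57 against 107 to 141 CPM on the deposited one, while Oxct1 and Acat1 overlap in the upper row.

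Bdh2 (ENSMUSG00000028167; chromosome 3, 135281221 to 135304426, plus strand) was listed at 0 in every library, which with values rounded to whole numbers means less than 0.5 CPM or no estimate. Of genes overlapping the members, the antisense gene Gm15743 at Bdh1 and the transcripts BC037032 and Gm15632 on the opposite strand of Oxct1 were also listed at 0 throughout.

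The order of the members' levels was taken per length, as CPM per kilobase of the median protein-coding transcript in GENCODE M21 (2635 bases for Oxct1, 3405 for Acat1 and 1603 for Bdh1). In WT, Oxct1 was highest at 333.6 ± 34.8, followed by Acat1 at 139.5 ± 10.2 and Bdh1 at 75.9 ± 10.9 CPM per kilobase. In TFEB-/- the order was the same, at 336.1 ± 14.9, 132.1 ± 4.67 and 33.7 ± 1.87. Neighbours in this order were separated by more than their SD in both groups. The place of Bdh1 next to Acat1 in WT rests on the length used. With the shortest coding model of Bdh1 (807 bases) its WT level was 150.8 ± 21.7, which overlaps that of Acat1.

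Ratios between members inside a library do not move with the total of that library, and 3 were compared. They are ratios of CPM without regard to length, so only their difference between the groups is read, not their size. Bdh1 reads, as CPM, were 14.4%, 13.7% and 13.4% of those of Oxct1 in the WT libraries and 5.91%, 5.65% and 6.78% in the TFEB-/- libraries. The groups did not overlap, and the mean log2 ratio was −2.85 ± 0.05 in WT and −4.02 ± 0.14 in TFEB-/-, a difference of −1.17. Against Acat1, Bdh1 stood at 28.3%, 23.8% and 24.6% in WT and at 12.3%, 11.6% and 12.2% in TFEB-/-. These groups did not overlap either, and the log2 ratio differed by −1.08. Both differences gave p = 0.1 in an exact two-sided permutation test, the smallest 3 against 3 can reach, and 0.15 after Benjamini-Hochberg adjustment over the 3 ratios. Neither could pass a threshold of 0.05 in this design.

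The ratio of Oxct1 to Acat1 overlapped between the groups. It was 197%, 174% and 184% in WT and 208%, 205% and 180% in TFEB-/-, a log2 difference of 0.09 (exact permutation p = 0.3, adjusted p = 0.3). The sign of each of the 3 ratio differences was the same whichever library was left out. Of the CPM summed over Bdh1, Oxct1 and Acat1, Bdh1 made up 7.97 to 8.71% in WT and 3.66 to 4.17% in TFEB-/-.

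**Figure D2:**
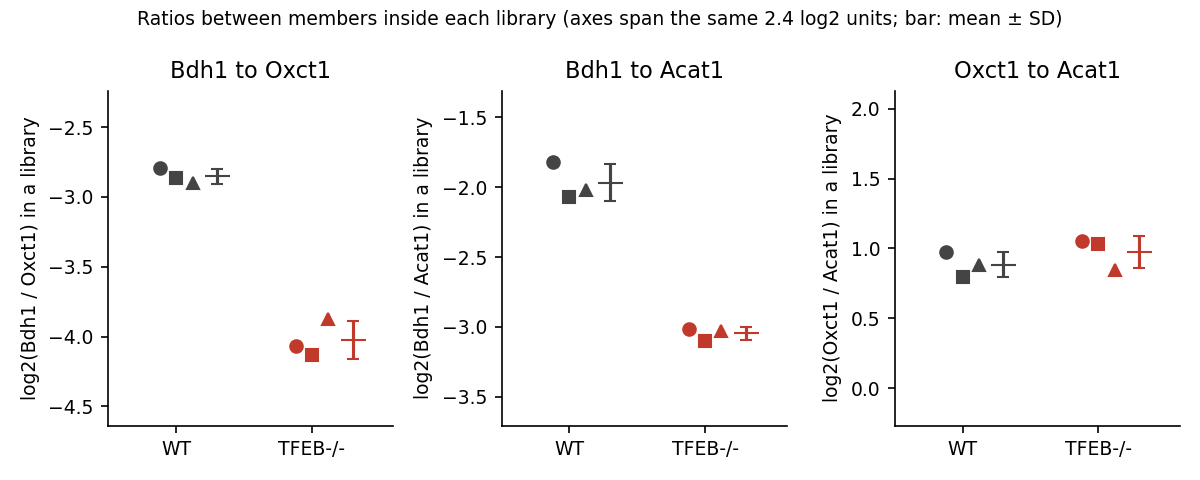
The log2 ratio of CPM between pairs of members inside each library, for WT (grey) and TFEB-/- (red), with bars for the mean ± SD and the same span on each axis. The ratios of Bdh1 to Oxct1 and to Acat1 are lower in all TFEB-/- libraries, by 1.17 and 1.08 log2 units on average, and the ratio of Oxct1 to Acat1 overlaps.

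None of the other genes of ketone metabolism that could be tested was called lower, but they are too few to set that apart from the share of all genes. Of 13 genes for ketone body synthesis, transport, sensing and cytosolic use, 9 could be tested, and limma called 1 higher and 0 lower, against the 3.92% and 0.523% of all genes given above. Their median log2 fold change was 0.40, beside 0.24 for all genes, and 7 of the 9 lay above that median. Among those above it, Aacs, Acat2, Slc16a3, Slc16a6 and Slc16a7 were at only 1 to 9 CPM. Bsg and Slc16a1, the most abundant of the list, lay below it. Summed over the list, CPM overlapped on the deposited scale. Without mitochondrial transcripts the sum was 2027.7 to 2191.8 CPM in WT and 1748.1 to 1937.1 CPM in TFEB-/-. Most of that sum was Bsg alone, at a mean of 1755 CPM in WT and 1529 CPM in TFEB-/-. It does not speak for the list, since 7 of the 9 again lay above the median of all genes. On the deposited scale 2 of the 9 were higher and 0 lower at an unadjusted p below 0.05 in limma, beside 21.1% and 2.3% of all tested genes. The list members at 0 in every library were Hmgcll1, Oxct2a, Oxct2b and Hcar2.

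Slc16a3 was the higher gene. It encodes the monocarboxylate transporter MCT4, known mainly for lactate export. It was at 1 CPM in each WT library and at 3, 3 and 2 CPM in TFEB-/-, values only a few rounding steps apart. The fitted log2 fold change was 1.06 (SE 0.15, limma adjusted p = 0.032). The call passed in 8 of 16 alternatives. It was lost on the scale without mitochondrial transcripts (adjusted p = 0.0595).

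Of the transporters that carry ketone bodies across the cell membrane, Slc16a1 was the most abundant, while Slc16a6 was at 4 to 9 CPM and Slc16a7 at 1 to 4 CPM over the 6 libraries, with overlap between the groups. Slc16a1, encoding the monocarboxylate transporter MCT1, was at 149, 149 and 130 CPM in WT and at 133, 141 and 169 CPM in TFEB-/- (log2 fold change 0.04, and −0.18 without mitochondrial transcripts). Bsg, its partner at the plasma membrane, was at 1118 ± 163 CPM in WT and 1130 ± 3.79 CPM in TFEB-/- (log2 fold change 0.03, but −0.20 without mitochondrial transcripts). The groups of Bsg overlapped on the deposited scale. Without mitochondrial transcripts Bsg was lower in every TFEB-/- library, as were 16.5% of all genes. It was then at 1742, 1844 and 1681 CPM in WT and 1450, 1619 and 1518 CPM in TFEB-/-. Neither gene passed the threshold on either scale.

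Acat2, the cytosolic thiolase of sterol synthesis, was at 3, 4 and 4 CPM in WT and at 6 CPM in each TFEB-/- library, and it missed the threshold (log2 fold change 0.65, limma adjusted p = 0.0566). Without mitochondrial transcripts its log2 fold change was 0.46 (limma adjusted p = 0.226).

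OXCT1 draws on succinyl-CoA, and none of the 6 tested genes that make or use it in the TCA cycle passed the threshold on the deposited scale. Their median log2 fold change was −0.14, and 0 of the 6 lay above the median of all genes. At an unadjusted p below 0.05 in limma 1 of the 6 was lower, beside 2.3% of all genes. When mitochondrial transcripts were left out all 6 were lower at that p, beside 9.19% of all genes. Ogdh and Dlst, subunits of the 2-oxoglutarate dehydrogenase complex, were the most abundant. Ogdh was at 2257 ± 486 CPM in WT and 1965 ± 377 CPM in TFEB-/-, and Dlst at 627.7 ± 69.6 and 644.7 ± 34.8 CPM. Their log2 fold changes were −0.20 and 0.04. Without mitochondrial transcripts they were −0.42 and −0.18, short of the threshold (limma adjusted p = 0.161 and 0.222). On that scale Ogdh and Dlst were lower in every TFEB-/- library, as were Sucla2, Suclg1, Suclg2, Dld and 16.5% of all genes. On the deposited scale the log2 fold change of Ogdh ran from −0.33 to −0.03 when 1 library was left out.

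Dld, the dihydrolipoamide dehydrogenase shared by several mitochondrial complexes, was singled out after its values were seen. It was at 287, 269 and 250 CPM in WT and at 232, 233 and 218 CPM in TFEB-/-, with no overlap (log2 fold change −0.24, SE 0.07, limma adjusted p = 0.142). Of all tested genes, 2.28% were separate in this direction on the deposited scale. Without mitochondrial transcripts Dld was called lower (log2 fold change −0.46, limma adjusted p = 0.0361), the 1 gene of the 6 to be called on that scale. Among all genes 1.51% were called lower there, and 6 genes are too few to set this count apart.

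No relative of ACAT1 among the thiolases passed the threshold on either scale. Of 5 genes for thiolases and the trifunctional protein of fatty acid oxidation, 0 were higher and 0 lower, with a median log2 fold change of −0.04 and 1 gene above the median of all genes. Among all genes 3.92% were called higher and 0.523% lower, so 5 genes are too few to set these counts apart. At an unadjusted p below 0.05 in limma none of the 5 was found, beside 21.1% higher and 2.3% lower of all genes. Without mitochondrial transcripts 0 were called and 1, Acaa2, was lower at such a p, beside 9.19% of all genes. On that scale Acaa2 and Hadhb were lower in every TFEB-/- library, as were 16.5% of all genes. Hadhb was at 1723 ± 163 and 1671 ± 117 CPM and Hadha at 1387 ± 177 and 1487 ± 158 CPM (log2 fold changes −0.04 and 0.10). Without mitochondrial transcripts the log2 fold changes were −0.27 for Hadhb and −0.12 for Hadha, whose sign turned. None of 6 nuclear genes of mitochondria in general, Cs, Vdac1, Tomm20, Cox4i1, Atp5a1 and Sdha, passed in limma (0 had an unadjusted p below 0.05). Their median log2 fold change was 0.17, beside 0.24 for all genes, and 2 of the 6 lay above the latter. Without mitochondrial transcripts it was −0.06, beside 0.02 for all genes, and 1 of the 6 lay above. On that scale Atp5a1 was lower in every TFEB-/- library, like 16.5% of all genes, and the others of the 6 overlapped.

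**Figure D3:**
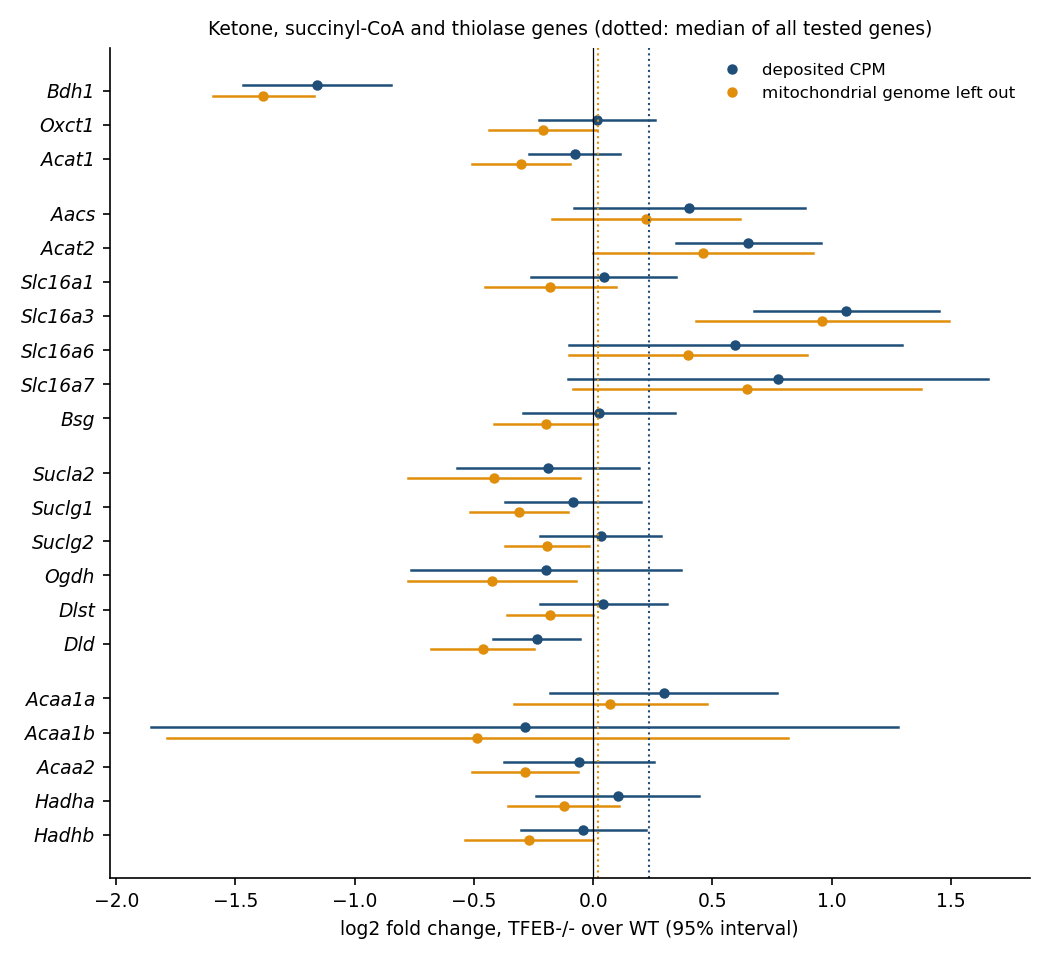
Log2 fold change of TFEB-/- over WT with its 95% interval from limma for the 3 tested members (top), 7 of the other ketone genes, the succinyl-CoA genes and the thiolase relatives, on the deposited scale (blue) and without mitochondrial transcripts (orange). Dotted lines are the medians of all tested genes, 0.24 and 0.02. Bdh1 lies left of the others on both scales, at −1.16 and −1.38, and Slc16a3 farthest right.

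The genes whose levels most resembled those of Bdh1 over the 6 libraries were found by Pearson correlation of log2(CPM + 0.5) among the 4373 genes averaging 20 CPM or more. With 6 libraries in 2 groups such a correlation mainly orders genes that differ between the groups alike and share the library totals, so it is given as a description. Eif4e, the cap-binding translation factor, came first (r = 0.993), followed by the signalling adaptor Grb14 (r = 0.988), the import receptor Ipo13 (r = 0.987), monoamine oxidase Maob (r = 0.984) and Asb14 (r = 0.979), a protein with ankyrin repeats and a SOCS box.

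These genes were picked by likeness to Bdh1 over the same libraries, so their calls are no independent evidence of a group difference. Among them Maob and Asb14 had the greater changes. Maob was at 40, 33 and 24 CPM in WT and at 11, 7 and 9 CPM in TFEB-/-. Its log2 fold change of −1.78 (SE 0.25, limma adjusted p = 0.033) passed in 10 of 17 alternatives and failed whichever library was left out (adjusted p = 0.0531 to 0.146). Asb14 was at 71, 67 and 56 CPM in WT and at 20, 23 and 19 CPM in TFEB-/-. Its log2 fold change of −1.62 (SE 0.12, limma adjusted p = 0.00398) passed in all 17. Grb14 fell from 173 to 104.7 CPM on average (log2 fold change −0.71), which passed in 9 of 17 alternatives and failed whichever library was left out (adjusted p = 0.0537 to 0.18).

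The genes nearest to Oxct1 that are reported here were the nuclear transport receptor Xpo7 (r = 0.991) and the ubiquitin enzyme Ube2h (r = 0.983). Nearest to Acat1 were Acadvl (r = 0.973), the very long-chain acyl-CoA dehydrogenase that begins fatty acid oxidation in mitochondria, Nsun4 (r = 0.968), a methyltransferase of the mitochondrial ribosome, and the amidase Nit2 (r = 0.966). Acadvl was at 1028, 976 and 788 CPM in WT and at 796, 755 and 862 CPM in TFEB-/-, and did not pass the threshold (log2 fold change −0.20, limma adjusted p = 0.366). No gene was among the nearest of more than 1 of the 3 members.

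**Figure D4:**
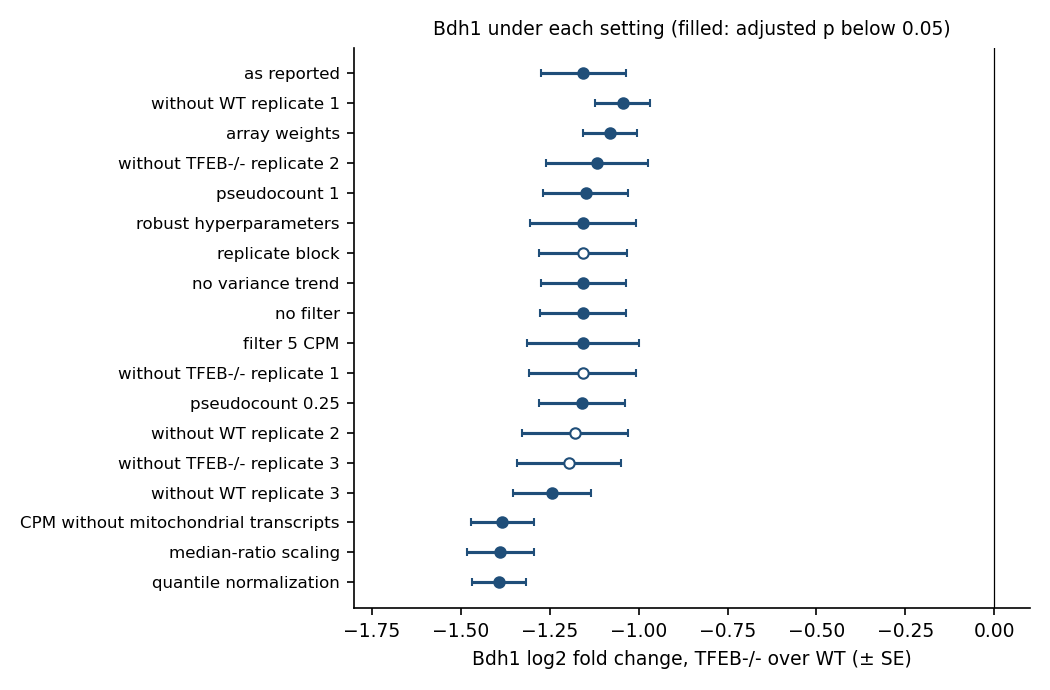
Log2 fold change of Bdh1, TFEB-/- over WT, with its SE from limma, for the reported fit and 17 alternatives. Filled points had an adjusted p below 0.05. All values lie between −1.39 and −1.05, and the 4 open points are the replicate block and the fits without WT 2, TFEB-/- 1 or TFEB-/- 3.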

How the data were processed

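Poly(A) libraries were made with a stranded kit from 400 ng of total RNA and read as pairs of 75 bases, per the labels' protocols. The deposited table holds a score per gene and library, taken from its name to be kallisto CPM, rounded by the authors to whole numbers. Per the submitters' processing notes STAR, HISAT2, kallisto, Salmon, RSEM, StringTie, DESeq2, edgeR and GRCm38 were named, with no role. Scaling by transcript length is not stated.

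Names turned into dates (26) were restored and values sharing a symbol summed. The 12437 genes reaching 1 CPM in 3 or more libraries were fitted with limma 3.58.1 in R 4.3.3 on log2(CPM + 0.5), with genotype as the term, a variance trend and Benjamini-Hochberg adjustment over all genes, two-sided, at 0.05. Fold changes are on this scale, which understates those of low genes. The script was tested on simulated data. No count model was run, because rounded values do not give back whole reads. Depth per library is unknown.

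Members, lists, tests and alternatives were chosen with earlier results of these data known. Named genes were the members, Tfeb, list genes past the threshold or else the 2 most abundant of a list, and the genes most correlated with Bdh1 (5), Oxct1 and Acat1 (3 each). Some genes are not reported here. Slc16a1, Bsg, Acat2, Dld, Pdgfra, Acta2 and other list genes were named beyond this rule. Sequences are from RefSeq (GRCm38).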

Additional observations from a re-analysis of the deposited data

How the results depend on the processing

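In 17 alternatives Bdh1 kept its direction and Acat1 stayed negative and short of the threshold. The Bdh1 call was lost with the replicate block (log2 fold change −1.16, adjusted p = 0.0911). Leaving out 1 library gave Bdh1 −1.24 to −1.05, Oxct1 −0.05 to 0.10, Bsg −0.101 to 0.0931, Dlst −0.0476 to 0.111, Hadhb −0.123 to 0.0174 and Slc16a1 −0.056 to 0.116. Correlations of deviations between samples of the same replicate number were 0.144, −0.049 and 0.088. Between samples of different numbers they ran from −0.184 to 0.104. With 3 samples per group these values cannot settle whether the samples were paired. With the block 159 genes were higher and 26 lower. Log2 fold changes turned negative without mitochondrial transcripts (Oxct1 −0.21, Bsg −0.20, Dlst −0.18, Hadha −0.12, Slc16a1 −0.18), with median-ratio scaling (Oxct1 −0.22, Bsg −0.21, Dlst −0.19, Hadha −0.13, Slc16a1 −0.19), with quantile normalization (Oxct1 −0.16, Bsg −0.16, Dlst −0.13, Hadha −0.13, Slc16a1 −0.19) and with array weights (Oxct1 −0.0098, Bsg −0.0655, Dlst −0.0097). The median of all tested genes, 0.24 as reported, was 0.02, 0.01, 0 and 0.18 under these. Of all genes, 487 were higher and 65 lower as reported. There were 2241 and 338 with array weights, 780 higher with robust hyperparameters, and 188, 196 and 172 lower without mitochondrial transcripts, with median-ratio scaling and with quantile normalization. The range was 154 to 406 higher and 38 to 87 lower when 1 library was left out. Of the other ketone genes 3 were higher with array weights, 0 with a filter of 5 CPM, with median-ratio scaling or without mitochondrial transcripts, and 0 to 1 when 1 library was left out. The cause of these shifts was not tested. Bdh2 gave no value under any setting. Rounding to whole CPM limits genes of a few CPM, Slc16a3 among them.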
